A study of Mus musculus with 9 samples.

Results

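Histone genes were followed in mouse oocytes arrested at metaphase II, the stage at which an ovulated egg waits for fertilization. Members were all genes named alone by a probe set whose symbol starts as a core or linker histone name does (H1f, H2a, H2b, H3c, H3f, H4c, H4f, or Hist with a digit), with major histocompatibility names left out. This gave 45 genes of the 19938 named in the data: 8 linker (H1), 13 H2A, 13 H2B, 4 H3 and 7 H4 genes. By symbol, 27 are named as genes of the histone clusters, called clustered here, most of them replication-dependent and a few made mainly in germ cells, and 18 are variant or stand-alone genes. The split rests on the symbol alone, so H2aw, H2bu2, H2bu1-ps and H4f16 count as stand-alone whatever their place in the genome. RNA was measured on 9 arrays, with 3 biological replicates each of Dicer knockout, Dgcr8 knockout and wild-type oocytes, all of strain C57BL/6. All females were superovulated with 7.5 IU of PMSG followed by 7.5 IU of hCG (gonadotropins that stimulate follicles and trigger ovulation), eggs were taken 14 to 16 h after hCG, and cumulus cells were removed with hyaluronidase at 0.3 mg/ml. The labels do not say how the knockouts were made (and thus in which cells), how old the animals were, or how many eggs and females stand behind an array.

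Core histones H2A, H2B, H3 and H4 wrap DNA into nucleosomes, and linker histone H1 binds where DNA enters and leaves them. Messages of the clustered genes mostly lack a poly(A) tail and end in a stem-loop held by stem-loop binding protein (Slbp), whereas variant genes such as those of H2A.Z mostly make polyadenylated messages in every phase of the cell cycle. An oocyte is not replicating its DNA, but it stores histone messages and proteins for the chromatin of the early embryo. Dicer cuts microRNAs and endogenous small interfering RNAs out of their precursors, and Dgcr8 is needed earlier, to cut most microRNA hairpins out of primary transcripts. The comparisons ask how histone messages stand when Dicer or Dgcr8 is lost.

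Levels are log2 signals, and changes are log2 differences between genotype means, with the standard error (SE) and adjusted p of the limma fit over all genes. A signal of at least 4 on at least 3 of the 9 arrays was required for testing, and an adjusted p under 0.05 counted as a call. Of the 45 genes, 38 passed this floor: 20 of the 27 clustered and 18 of the 18 variant or stand-alone genes. The array medians over all probe sets lay between 5.48 and 5.58, and replicates correlated at r of 0.9931 to 0.9965 across genes. Dicer1 signals were 10.82, 10.77 and 10.57 in Dicer knockout, 11.65, 11.63 and 11.75 in Dgcr8 knockout and 11.66, 11.67 and 11.67 in wild-type oocytes, a fall of 0.95 in Dicer knockout against wild-type (limma adjusted p = 1.005e-05). Dgcr8 signals were 8.37, 8.28 and 8.72 in Dicer knockout, 5.47, 5.98 and 5.70 in Dgcr8 knockout and 8.85, 9.05 and 8.97 in wild-type oocytes, a change of -3.24 in Dgcr8 knockout against wild-type (limma adjusted p = 1.06e-05). Where in either gene the deletion lies relative to the probes is not given. Summed signals of 12 oocyte markers (such as Zp2 and Gdf9) were 15.25 to 15.39 (log2) in Dicer knockout, 15.13 to 15.25 in Dgcr8 knockout and 15.18 to 15.25 in wild-type oocytes, and 2 of the 12 (Zp2 and Nobox) were called higher in Dicer knockout than wild-type. Those of 21 cumulus and granulosa markers were 10.65 to 10.85 in Dicer knockout, 10.78 to 10.90 in Dgcr8 knockout and 10.75 to 10.83 in wild-type oocytes, with median signals between 4.92 and 5.13. Nr5a2 and Gata4 had the highest signals of these markers (wild-type means 9.8 and 8.03) and weigh most in the sum. In Dicer knockout against wild-type 1 of the 20 tested (Gata4) was called higher, and Nr5a2 was lower on all 3 arrays without a call (-0.41, limma adjusted p = 0.0671). Of all genes tested, 4.87% were called higher in that comparison.

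In Dicer knockout oocytes 5 histone genes rose against wild-type: the linker histones H1f2 (3.14-fold) and H1f1 (1.42-fold), the H2A variants H2ax (2.72-fold) and H2az1 (1.34-fold), and the core gene H4c4 (1.64-fold). None of the 38 fell by limma's adjusted p, with 4 lower at an unadjusted p under 0.05, beside 2474 of all 17324 genes tested. In Dgcr8 knockout oocytes none was called against wild-type. None reached an unadjusted p under 0.05 either, where 457 of all 17324 genes tested did. The same 5 genes, with the H2B genes H2bc4 and H2bc1, were called higher in Dicer than in Dgcr8 knockout oocytes, a comparison that uses the same Dicer knockout arrays. Among all 17324 genes tested, 11.3% were called between Dicer knockout and wild-type, 4.87% as higher and 6.47% as lower. Between Dgcr8 knockout and wild-type 0.0231% were called, 0.0173% as higher and 0.00577% as lower. Between Dicer and Dgcr8 knockout 13.4% were called, 5.48% as higher and 7.92% as lower. The median change of the 38 members was 0.03 in Dicer knockout (-0.03 over all genes) and -0.05 in Dgcr8 knockout (0.00 over all genes). The other 33 members tested did not pass the test in Dicer knockout against wild-type. The RNA comes from whole samples and the arrays were normalized to each other, so fewer eggs in a sample and less RNA per egg cannot be told apart.

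**Figure D1:**
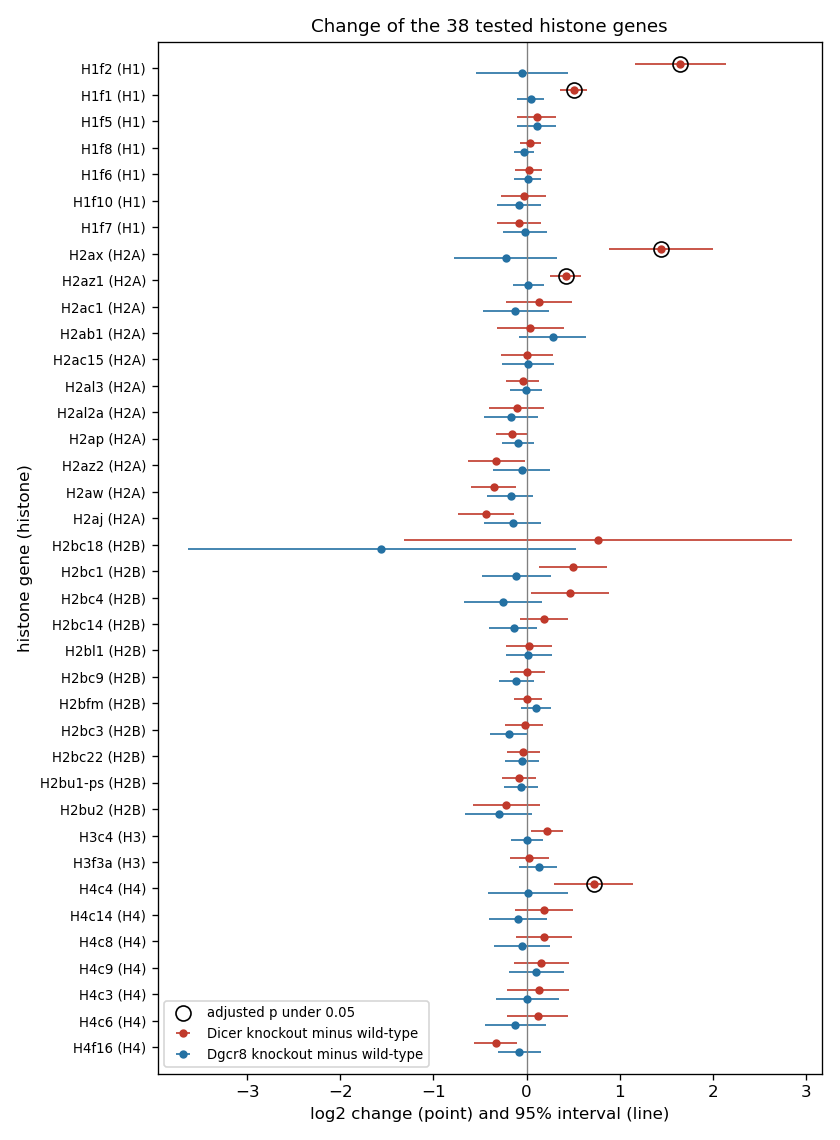
Log2 change of each of the 38 tested histone genes, with its 95% confidence interval, in Dicer knockout minus wild-type and Dgcr8 knockout minus wild-type oocytes (3 arrays per genotype; circles mark an adjusted p under 0.05). H1f2 at 1.65 and H2ax at 1.44 lie farthest to the right of 0 among called genes in the Dicer knockout comparison, and H2bc18 has the widest interval.

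The promoters of the called genes show what these genes have in common and where they differ in the sequence just upstream, since clustered and variant genes carry different promoter elements. RefSeq windows (assembly GRCm38.p6) of 300 bases, 250 before and 50 after the annotated start, were held for 39 of the 45 members, and 5 of the 7 genes called in any comparison are printed 5′ to 3′ on the gene's own strand. Capitals mark 4 searched motifs on either strand: the CCAAT box, which reads ATTGG on the other strand, the TATAAA box (other strand, TTTATA), the motif AAACACA (other strand, TGTGTTT) and the octamer ATTTGCAT (other strand, ATGCAAAT). No marked matches overlap in these windows. H2ax on chromosome 9 and H2bc4 on chromosome 13 are named only. H1f1 lies at chr13:23763418-23763717 (plus strand), H1f2 at chr13:23738557-23738856 (plus), H4c4 at chr13:23581318-23581617 (plus), H2bc1 at chr13:23934107-23934406 (minus) and H2az1 at chr3:137864237-137864536 (plus).
H1f1: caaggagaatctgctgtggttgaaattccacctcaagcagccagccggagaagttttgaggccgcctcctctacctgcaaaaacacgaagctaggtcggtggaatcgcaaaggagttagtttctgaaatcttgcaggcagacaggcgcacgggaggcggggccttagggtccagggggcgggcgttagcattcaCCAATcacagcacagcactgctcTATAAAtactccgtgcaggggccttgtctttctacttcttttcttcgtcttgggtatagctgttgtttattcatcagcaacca
H1f2: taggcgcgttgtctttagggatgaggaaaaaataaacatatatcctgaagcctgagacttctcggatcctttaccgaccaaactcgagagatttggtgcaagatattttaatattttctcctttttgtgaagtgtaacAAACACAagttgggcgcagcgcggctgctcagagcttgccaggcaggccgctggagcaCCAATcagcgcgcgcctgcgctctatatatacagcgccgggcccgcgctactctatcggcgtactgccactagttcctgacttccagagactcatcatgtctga
H4c4: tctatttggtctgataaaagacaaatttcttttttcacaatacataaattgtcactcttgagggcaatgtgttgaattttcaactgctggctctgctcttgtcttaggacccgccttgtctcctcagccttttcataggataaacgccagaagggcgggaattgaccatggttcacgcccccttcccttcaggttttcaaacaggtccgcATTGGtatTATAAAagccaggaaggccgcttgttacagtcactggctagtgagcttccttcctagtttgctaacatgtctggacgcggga
H2bc1: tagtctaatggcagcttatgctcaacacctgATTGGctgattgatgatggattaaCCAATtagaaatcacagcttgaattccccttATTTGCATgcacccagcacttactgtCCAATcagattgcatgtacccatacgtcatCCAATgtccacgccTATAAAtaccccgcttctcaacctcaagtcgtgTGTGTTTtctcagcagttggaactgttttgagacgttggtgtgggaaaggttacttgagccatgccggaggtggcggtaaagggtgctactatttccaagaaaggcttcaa
H2az1: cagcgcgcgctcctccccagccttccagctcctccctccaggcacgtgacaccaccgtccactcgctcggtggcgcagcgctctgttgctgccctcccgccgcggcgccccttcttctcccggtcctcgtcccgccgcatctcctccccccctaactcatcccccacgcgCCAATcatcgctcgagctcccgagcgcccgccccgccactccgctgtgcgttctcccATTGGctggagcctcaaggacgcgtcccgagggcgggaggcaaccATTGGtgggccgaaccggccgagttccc

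The windows of H1f1 and H4c4 hold a TATAAA 33 and 32 bases before the annotated start, with a CCAAT (its complement in H4c4) 56 and 40 bases before it. The H1f2 window has a CCAAT 54 bases before the start and an AAACACA 112 bases before it, and no TATAAA. H2bc1 carries an octamer, an element known from H2B promoters, 164 bases before its start and CCAAT on either strand at 219, 195, 138 and 108. It also has a TATAAA 94 bases and the complement of AAACACA 61 bases before the start. The variant gene H2az1 holds CCAAT on either strand and no other searched motif. Of all 32851 windows in the table, CCAAT was in 37.4%, TATAAA in 13.6%, AAACACA in 7.18% and ATTTGCAT in 1.74%. Among the 39 histone windows the shares were 79.5%, 43.6%, 23.1% and 23.1% for the same motifs. Windows of neighbouring genes on opposite strands can overlap, as do those of H2bc1 with H2ac1 and of H2bc8 with H2ac8, each with the octamer. Such stretches count more than once in the shares. TATAAA was in 65.2% of the 23 clustered and 12.5% of the 16 variant windows, and the octamer was in 34.8% and 6.25%. A match to these letters is a description of the window only.

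The largest called change among the members was that of a single linker histone gene, H1f2. H1f2 (Entrez gene 50708, probe set 10404059), a somatic H1 that is clustered, had signals of 8.12, 7.80 and 8.19 in Dicer knockout, 5.76, 6.66 and 6.60 in Dgcr8 knockout and 6.53, 6.41 and 6.22 in wild-type oocytes. All 3 Dicer knockout arrays lay above the other 6, and the Dgcr8 knockout and wild-type arrays overlapped. The mean was 8.04 ± 0.21 in Dicer knockout, 6.34 ± 0.50 in Dgcr8 knockout and 6.39 ± 0.16 in wild-type oocytes (SD, n = 3 each). H1f2 was higher in Dicer knockout than wild-type by 1.65 (SE 0.22, limma adjusted p = 0.00114) and than in Dgcr8 knockout by 1.70 (SE 0.22, limma adjusted p = 0.000862). The change in Dgcr8 knockout against wild-type was -0.05, with a 95% confidence interval of -0.54 to 0.45.

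H1f1 (Entrez gene 80838, probe set 10404069), also clustered, had a smaller change with less scatter. Its signals were 10.73, 10.52 and 10.69 in Dicer knockout, 10.23, 10.14 and 10.18 in Dgcr8 knockout and 10.21, 10.12 and 10.08 in wild-type oocytes. The 3 Dicer knockout arrays were again the 3 highest of the 9. The change in Dicer knockout against wild-type was 0.51 (SE 0.06, limma adjusted p = 0.000813), and in Dgcr8 knockout against wild-type it was 0.05 (interval -0.10 to 0.19). Between Dicer and Dgcr8 knockout it was 0.46 (limma adjusted p = 0.0013).

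H1f8, the linker histone made in oocytes and early embryos, was not called in any comparison. Its signals were 11.88, 11.90 and 11.82 in Dicer knockout, 11.70, 11.79 and 11.89 in Dgcr8 knockout and 11.78, 11.87 and 11.81 in wild-type oocytes, and the 3 genotypes overlapped. The interval of its change in Dicer knockout against wild-type was -0.07 to 0.16 around 0.04 (limma adjusted p = 0.684), and in Dgcr8 knockout against wild-type -0.14 to 0.08. The other tested linker genes were H1f5, H1f10, and the testis genes H1f6 and H1f7, with changes of -0.08 to 0.11 in Dicer knockout against wild-type, none called. H1f3 stayed under the floor, between 3.77 and 4.0 on all 9 arrays.

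Among H2A genes, the variants H2ax and H2az1 rose in Dicer knockout oocytes, while no other of the 11 tested passed the test. H2ax (Entrez gene 15270, probe set 10584710), the variant that is phosphorylated around DNA breaks, had signals of 9.15, 8.97 and 8.65 in Dicer knockout, 6.84, 7.54 and 7.40 in Dgcr8 knockout and 7.28, 8.02 and 7.14 in wild-type oocytes. Every Dicer knockout array was above every other array, and wild-type replicate 2 stood above its group. The mean was 8.93 ± 0.25 in Dicer knockout, 7.26 ± 0.37 in Dgcr8 knockout and 7.48 ± 0.47 in wild-type oocytes (SD, n = 3 each). The difference was 1.44 against wild-type (SE 0.25, limma adjusted p = 0.00458) and 1.67 against Dgcr8 knockout (SE 0.25, limma adjusted p = 0.00193). In Dgcr8 knockout against wild-type it was -0.22, with an interval of -0.78 to 0.33.

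H2az1 (Entrez gene 51788, probe set 10540999) encodes the H2A.Z variant found at promoters. Its signals were 10.38, 10.39 and 10.27 in Dicer knockout, 10.03, 9.86 and 9.94 in Dgcr8 knockout and 10.04, 9.93 and 9.79 in wild-type oocytes. The Dicer knockout arrays did not overlap with the others. The change was 0.42 in Dicer knockout against wild-type (SE 0.08, limma adjusted p = 0.00555) and 0.02 in Dgcr8 knockout against wild-type. Between Dicer and Dgcr8 knockout it was 0.40 (limma adjusted p = 0.00669). H2az2, which encodes the other H2A.Z protein, had signals of 7.34, 7.08 and 7.15 in Dicer knockout, 7.37, 7.64 and 7.37 in Dgcr8 knockout and 7.32, 7.45 and 7.77 in wild-type oocytes. Its change in Dicer knockout against wild-type was -0.33 (limma adjusted p = 0.177), so it did not pass the test.

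**Figure D2:**
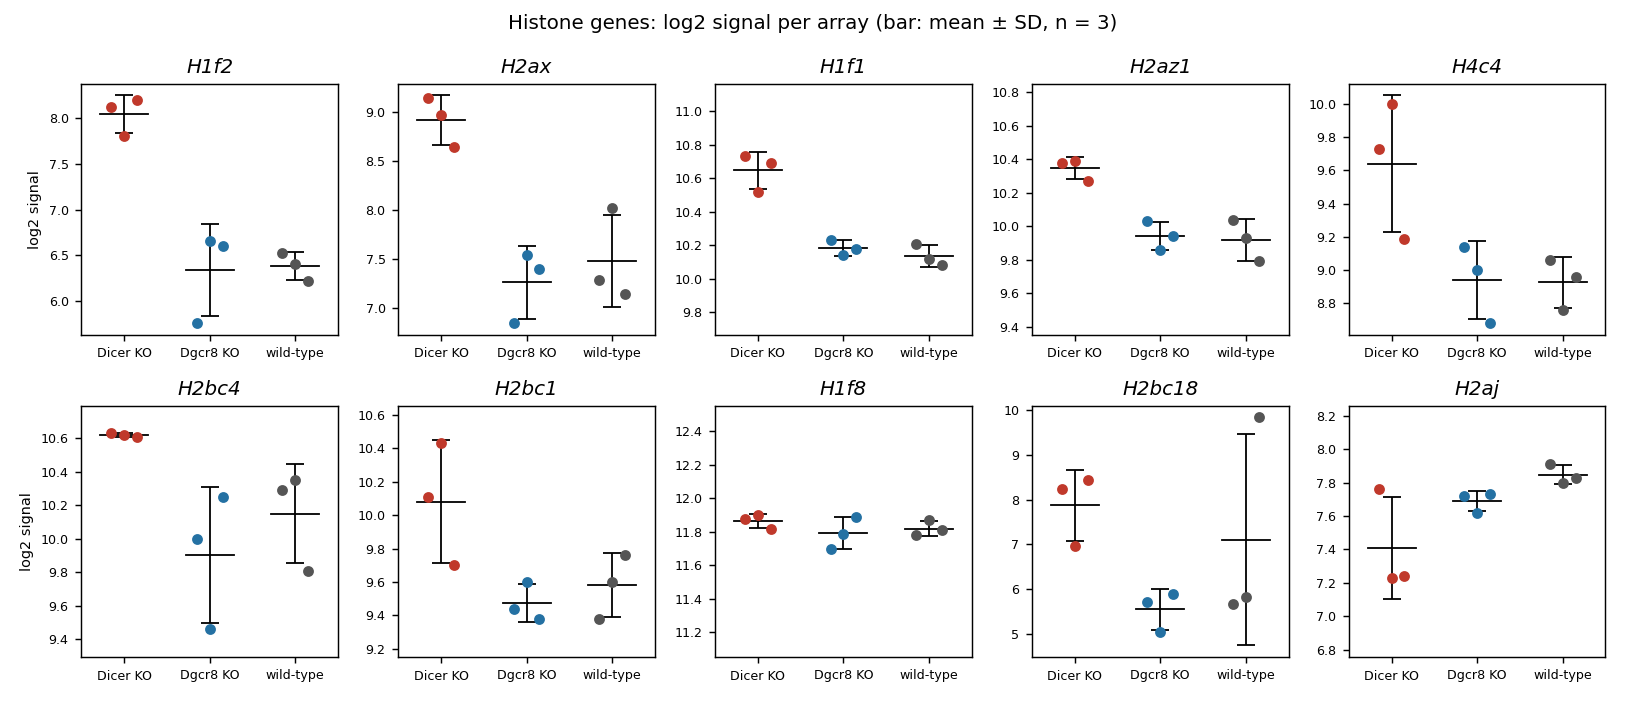
Log2 signal on each array, by genotype, of the 7 histone genes called in any comparison and of H1f8, H2bc18 and H2aj (points, 3 arrays each; bars, mean ± SD; each panel has its own axis, which does not start at 0). The Dicer knockout points of H1f2, H1f1, H2ax, H2az1 and H4c4 all lie above the Dgcr8 knockout and wild-type points, while those of H1f8 overlap.

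Lower values without a call were seen in stand-alone H2A genes. H2aj, a variant close to canonical H2A, had signals of 7.76, 7.23 and 7.24 in Dicer knockout, 7.72, 7.62 and 7.73 in Dgcr8 knockout and 7.91, 7.80 and 7.83 in wild-type oocytes. All 3 Dicer knockout arrays lay under the wild-type arrays, with replicate 1 nearest to them. The change of -0.44 (interval -0.74 to -0.13) had a limma adjusted p of 0.0727. Without Dicer knockout replicate 1 it was -0.61 and called (limma adjusted p = 0.00439), within a range of 0.00439 to 0.194 over the alternatives. H2aw (-0.35, limma adjusted p = 0.0689) and the H4 gene H4f16 (-0.33, limma adjusted p = 0.0750) were likewise lower on all 3 Dicer knockout than on all 3 wild-type arrays without being called. H2aj and H2aw were also lower on all 3 Dgcr8 knockout than on all 3 wild-type arrays (-0.15 and -0.17, not called). Both overlapped between Dicer and Dgcr8 knockout, so their lower values were not particular to Dicer knockout. A further 5 H2A genes, H2ab1, H2ac15, H2al2a, H2al3 and H2ap, had changes of -0.16 to 0.04, none called.

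H2ac1 encodes TH2A, a testis and oocyte form of H2A, and H2bc1 beside it on chromosome 13 encodes the matching TH2B. H2ac1 signals were 11.52, 11.77 and 10.99 in Dicer knockout, 11.20, 11.22 and 11.11 in Dgcr8 knockout and 11.16, 11.30 and 11.41 in wild-type oocytes. H2bc1 signals were 10.11, 10.43 and 9.70 in Dicer knockout, 9.44, 9.60 and 9.38 in Dgcr8 knockout and 9.38, 9.60 and 9.76 in wild-type oocytes. For both genes Dicer knockout replicate 3 was the lowest of its group, under at least 1 wild-type array, and replicate 2 was the highest of all 9. H2bc1 was higher in Dicer than in Dgcr8 knockout oocytes by 0.61 (limma adjusted p = 0.0365, lost in 10 of 19 alternatives with values of up to 0.118), whereas its change against wild-type was 0.50 (limma adjusted p = 0.0875) and that of H2ac1 was 0.13 (limma adjusted p = 0.709). Without Dicer knockout replicate 3, the changes against wild-type became 0.69 for H2bc1 and 0.35 for H2ac1, and both were called (limma adjusted p = 0.0117 for H2bc1 and 0.0366 for H2ac1). Over all alternatives these adjusted p-values ranged between 0.0117 and 0.256 for H2bc1 and between 0.0366 and 0.920 for H2ac1. In the reference the span of H2bc1 overlaps that of a predicted gene, so its signal may not come from H2bc1 alone.

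None of the 11 H2B genes tested was called between Dicer knockout and wild-type oocytes. At an unadjusted p under 0.05, 2 were higher and 0 lower, beside 1628 and 2474 of all 17324 genes tested. H2bc4, a clustered core gene, had signals of 10.63, 10.62 and 10.61 in Dicer knockout, 10, 9.46 and 10.25 in Dgcr8 knockout and 10.29, 10.35 and 9.81 in wild-type oocytes. The Dicer knockout arrays lay above the rest and close together, and the other 6 were mixed. The difference was 0.72 against Dgcr8 knockout (SE 0.19, limma adjusted p = 0.0313) and 0.47 against wild-type (limma adjusted p = 0.157). The call against Dgcr8 knockout did not hold when any 1 of the 3 Dicer knockout arrays, or replicate 1 or 2 of Dgcr8 knockout, was left out, and its limma adjusted p ranged from 0.0186 to 0.0879 over the alternatives.

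H2bc18, a further clustered H2B gene, had the largest rise without a call among the members above the floor, and 1 array decided it. Its signals were 8.23, 6.96 and 8.43 in Dicer knockout, 5.71, 5.04 and 5.90 in Dgcr8 knockout and 5.67, 5.82 and 9.84 in wild-type oocytes. Wild-type replicate 3 was the highest of all 9 arrays, far above the other wild-type arrays, which lay among the Dgcr8 knockout values. With all arrays the change in Dicer knockout against wild-type was 0.77, with an interval of -1.32 to 2.85 (limma adjusted p = 0.718). Without wild-type replicate 3 it was 2.13 (limma adjusted p = 0.0161, in a range of 0.0161 to 0.991 over the alternatives), and the difference between Dicer and Dgcr8 knockout was 2.33 with a limma adjusted p of 0.00444, against 0.144 with all arrays. For the other 8 H2B genes tested, changes in Dicer knockout against wild-type ran from -0.22 (H2bu2) to 0.19 (H2bc14).

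Of the 7 H4 genes, H4c4 rose in Dicer knockout oocytes, and 6 of the 7 had a positive value with a median of 0.16. H4c4 (Entrez gene 319156, probe set 10404051), a clustered gene, had signals of 9.73, 10 and 9.19 in Dicer knockout, 9.14, 9.00 and 8.68 in Dgcr8 knockout and 9.06, 8.76 and 8.96 in wild-type oocytes. The 3 Dicer knockout arrays lay above the other 6, replicate 3 only just, and the Dgcr8 knockout and wild-type arrays overlapped. The change was 0.72 against wild-type (SE 0.19, limma adjusted p = 0.0386), 0.70 against Dgcr8 knockout (limma adjusted p = 0.0379) and 0.02 in Dgcr8 knockout against wild-type. The call against Dgcr8 knockout was lost in 12 of 19 alternatives, with limma adjusted p-values of up to 0.135. The call against wild-type was lost without any 1 wild-type array, without Dicer knockout replicate 1 or 2, or without Dgcr8 knockout replicate 2, with limma adjusted p-values of up to 0.130. The other 5 clustered H4 genes, H4c3, H4c6, H4c8, H4c9 and H4c14, had values of 0.12 to 0.19 against wild-type, none called. Of the 4 H3 genes, only H3c4 and the replacement gene H3f3a passed the floor. H3c4 had 6.03, 6.13 and 5.95 in Dicer knockout, 5.85, 5.85 and 5.76 in Dgcr8 knockout and 5.81, 5.85 and 5.79 in wild-type oocytes, a change of 0.22 against wild-type that was not called (limma adjusted p = 0.104). H3f3a changed by 0.03 (interval -0.18 to 0.24), read from a probe set with a wild-type mean of 6.5. Probe sets that name H3f3a together with Gm12657 had wild-type means of 11.6 to 11.98. They were left out of the members because they carry several symbols.

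By symbol class, values of clustered genes leaned to the positive side in Dicer knockout oocytes. Those of variant or stand-alone genes lay near those of all genes. Of the 20 clustered genes tested, 18 had a positive value against wild-type with a median of 0.18, and 3 were called higher. Of the 18 variant or stand-alone genes, 7 had a positive value with a median of -0.06, and 2 were called higher. Over all 17324 genes tested, 7293 had a positive value, the median was -0.03 and 4.87% were called higher. H2aw (-0.35), H4f16 (-0.33) and H2bu2 (-0.22), placed in the stand-alone class by symbol, gave some of its lowest values. The median in Dgcr8 knockout against wild-type was -0.05 for clustered and -0.06 for variant genes. The difference between the classes was not tested. Against wild-type, all 3 Dicer knockout arrays were above all 3 wild-type arrays for 8 of the 38 genes and under them for 4, where 10% and 16.1% of all genes were. In Dgcr8 knockout against wild-type this held for 1 and 5 genes, where 3.52% and 3.02% of all genes did so, and in Dicer against Dgcr8 knockout for 11 and 2, where 10.2% and 15.9% did. The 5 lower in Dgcr8 knockout than wild-type were H2aj, H2aw, H2ap, H2al2a and H2bc3, none called.

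The arrays of the Dicer knockout group were not alike for the clustered core genes. Over the 16 clustered H2A, H2B, H3 and H4 genes tested, the median deviation from the wild-type mean was 0.19, 0.27 and 0.09 in Dicer knockout replicates 1, 2 and 3. Replicate 2 was the highest of its group for 10 of the 16 genes and replicate 3 the lowest for 10. In Dgcr8 knockout, replicate 2 was the highest for 8 and replicate 3 the lowest for 8, and wild-type replicate 2 was the lowest for 8. The median SD of these genes was 0.20 in Dicer knockout, 0.12 in Dgcr8 knockout and 0.12 in wild-type oocytes, beside 0.12 in Dicer knockout, 0.11 in Dgcr8 knockout and 0.08 in wild-type oocytes over all genes. For the 18 variant genes the median deviations in Dicer knockout replicates 1, 2 and 3 were -0.07, -0.04 and -0.03.

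**Figure D3:**
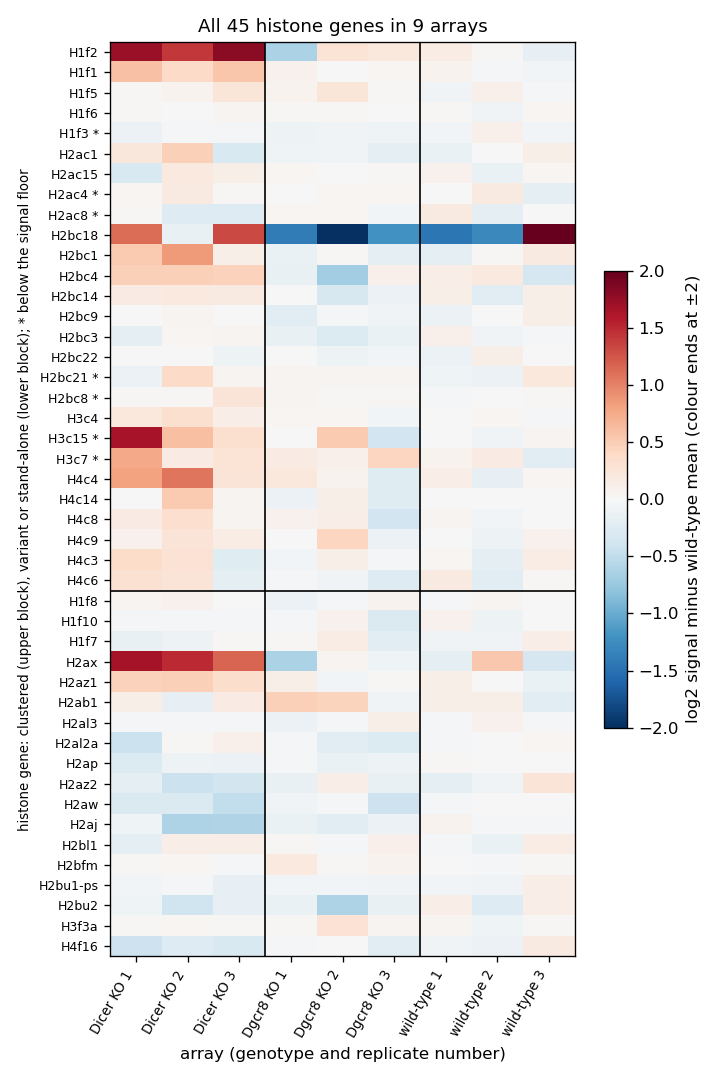
Log2 signal minus the gene's wild-type mean, on a colour scale that ends at 2 in either direction, for all 45 histone genes (rows; clustered above, variant or stand-alone below, stars for the 7 under the floor) on the 9 arrays (columns). H1f2 and H2ax are high on all 3 Dicer knockout arrays, and H2bc18 is high on wild-type replicate 3.

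The 7 genes under the floor were all clustered: H1f3, H2ac4, H2ac8, H2bc8, H2bc21, H3c7 and H3c15. Fitted without a floor, none of them was called. H3c15 had signals of 5.06, 4.02 and 3.74 in Dicer knockout, 3.41, 3.94 and 3.03 in Dgcr8 knockout and 3.43, 3.35 and 3.47 in wild-type oocytes, a difference of 0.86 against wild-type (limma adjusted p = 0.136 without the floor). By position, 24 of the 45 members lie on chromosome 13, where 19 were tested and 3 were called higher in Dicer knockout against wild-type. Histone genes of a cluster are near-identical in their coding parts, and a probe set named for 1 of them may also pick up others. A further 47 probe sets carry several names of which at least 1 is a histone name, and their changes in Dicer knockout against wild-type ran from -0.22 to 0.78, with a median of 0.05.

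Proteins that carry histones or place them were read from a list of 32 histone chaperone and exchange factor genes, of which 29 were tested. In Dicer knockout against wild-type 0 were called higher and 6 lower by limma (4.87% and 6.47% of all genes were). At an unadjusted p under 0.05, 3 were higher and 8 lower, beside 1628 and 2474 of all 17324 genes tested. The median change was 0.00, beside -0.03 over all genes. Anp32e, which takes H2A.Z out of nucleosomes, had signals of 8.81, 8.90 and 8.84 in Dicer knockout, 9.55, 9.40 and 9.67 in Dgcr8 knockout and 9.44, 9.77 and 9.46 in wild-type oocytes. All Dicer knockout arrays were under the other 6, and Anp32e fell by 0.71 (SE 0.10, limma adjusted p = 0.00156). The others called lower were Ubn2 (-0.29) and Cabin1 (-0.31), partners of the H3 chaperone Hira, the remodelers Ino80 (-0.24) and Srcap (-0.40), and the H2A and H2B chaperone Nap1l4 (-0.16). The calls of Ubn2, Cabin1 and Ino80 were lost in 4, 7 and 8 of 19 alternatives, single arrays left out among them, with limma adjusted p-values of up to 0.0775, 0.103 and 0.119. Those of Srcap and Nap1l4 (limma adjusted p = 0.0341 and 0.0411) were not checked under the alternatives. In Dgcr8 knockout against wild-type none was called, and none had an unadjusted p under 0.05, where 457 of all 17324 genes tested did.

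Of 31 genes for making or destroying histone messages, 30 were tested. In Dicer knockout oocytes 4 of them were called higher and 2 lower than in wild-type by limma, beside 4.87% and 6.47% of all genes, so that the share called lower was near that of all genes. The median change was -0.08, beside -0.03 over all genes. Zfp473, whose human counterpart is part of the U7 particle that cuts the end of clustered histone messages, had signals of 9.88, 9.53 and 9.96 in Dicer knockout, 6.44, 7.41 and 7.03 in Dgcr8 knockout and 6.85, 6.81 and 6.56 in wild-type oocytes. The Dicer knockout arrays stood far above the other 6, with a change of 3.05 against wild-type (8.30-fold, SE 0.22, limma adjusted p = 1.86e-05). Lsm4, a subunit of the Lsm rings of message decay and splicing, had 8.21, 8.84 and 8.22 in Dicer knockout, 6.87, 6.97 and 7.01 in Dgcr8 knockout and 7.21, 6.97 and 6.92 in wild-type oocytes, a rise of 1.39 (SE 0.16, limma adjusted p = 0.000519).

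Lsm1, the subunit specific to the decay ring, rose by 0.49 (limma adjusted p = 0.00394) and Srrt, a partner of the cap-binding complex, by 0.54 (limma adjusted p = 0.00570). The cap-binding subunit Ncbp2 (-0.33, limma adjusted p = 0.0371) and the exonuclease Eri1, which trims the end of histone messages (-0.35, limma adjusted p = 0.0295), fell. Neither of these calls was checked under the alternatives. Slbp, named after its values were seen, had 11.32, 11.20 and 11.33 in Dicer knockout, 11.33, 11.28 and 11.38 in Dgcr8 knockout and 11.37, 11.40 and 11.33 in wild-type oocytes. The 3 Dicer knockout arrays lay under the 3 wild-type arrays, with the nearest values equal to 2 decimals, and the Dgcr8 knockout arrays overlapped with both. Its change in Dicer knockout against wild-type was -0.09 (interval -0.19 to 0.01, limma adjusted p = 0.296). In Dgcr8 knockout against wild-type none of the 30 was called by limma, with 1 at an unadjusted p under 0.05, beside 457 of all 17324 genes tested.

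**Figure D4:**
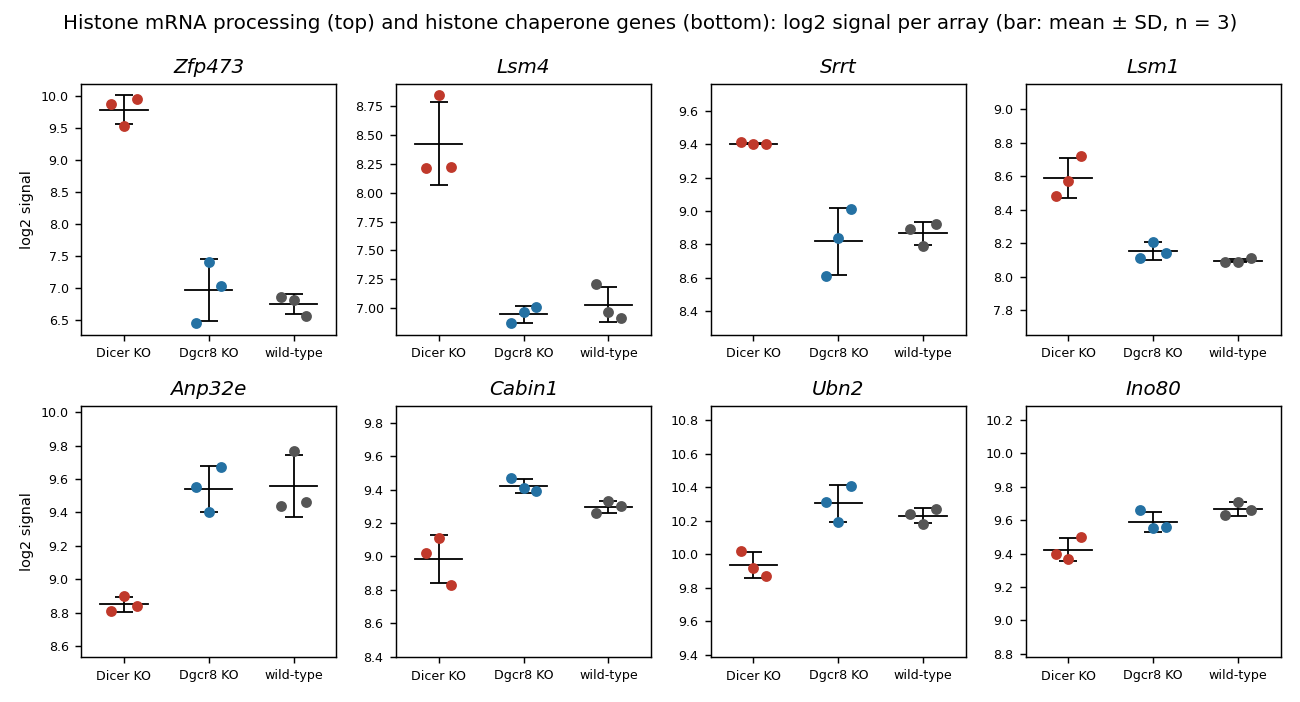
Log2 signal on each array, by genotype, of the named genes that process or carry histones (points, 3 arrays each; bars, mean ± SD; each panel has its own axis, which does not start at 0). Zfp473 and Lsm4 lie higher and Anp32e lower on all 3 Dicer knockout arrays than on the other 6.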

How the data were processed

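The deposited values are log2 signals, 1 per probe set and array, which the authors made with GCRMA, per the submitters' processing notes (version not given in the sources used here). They are comparable between arrays for a probe set, not between probe sets. No further scaling was applied. GCRMA corrects the background and normalizes between arrays, so a change shared by all messages would not show. Of 35557 probe sets, 21789 carry 1 gene symbol in the platform annotation, 1621 several and 12147 none. Each of the 19938 genes was represented by its brightest probe set, taken on the average of 9 arrays. Genes at 4 or more (log2) on at least 3 arrays entered a single limma 3.58.1 fit (R 4.3.3, statmod 1.5.0; lmFit, eBayes with trend and robust), with 2-sided p-values adjusted by Benjamini-Hochberg over all 17324 genes tested. The fit was tested on simulated data. Adjusted p-values in the text are from it. The second probe sets and those with several symbols were fitted over all probe sets.

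The labels call the arrays biological replicates without naming animals, so p-values measure the spread between these samples. Precision is limited by the few arrays: members' 95% intervals had a median half-width of 0.25. Same-numbered replicates were not taken as pairs across genotypes, for the values given with the alternatives. The members and the gene lists were chosen with earlier results of these data known. Genes named are all members called in any comparison, H1f2, H1f1, H2ax, H1f8, the 5 members with the highest mean, the largest uncalled rise and fall among members tested, up to 4 genes of each pathway list, Dicer1 and Dgcr8. Others named in passing were chosen after their values were seen. A planned naming of genes with the most similar pattern was left out, because the arrays cluster by genotype.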

Additional observations from a re-analysis of the deposited data

Results flagged for a closer look

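Some probe sets outside the gene table were also called higher in Dicer knockout than wild-type oocytes. A second probe set named for H2az1 alone (10496379) had signals of 10.04, 10.02 and 9.85 in Dicer knockout, 9.63, 9.43 and 9.53 in Dgcr8 knockout and 9.64, 9.56 and 9.37 in wild-type oocytes, a change of 0.45 against wild-type (limma adjusted p = 0.0168, fitted over all probe sets), close to the 0.42 of the first.

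A probe set that carries the names of both H2bc6 and H1f4 (10408212) had 5.99, 5.81 and 6.10 in Dicer knockout, 5.19, 5.19 and 5.31 in Dgcr8 knockout and 5.31, 4.96 and 5.29 in wild-type oocytes. Its change of 0.78 against wild-type (limma adjusted p = 0.00352, over all probe sets) was called. It was the 1 of 47 such probe sets that was, beside 2477 of all 27257 probe sets called in either direction in that comparison. Which of its genes the signal comes from was not tested. In Dicer against Dgcr8 knockout, 5 of the 47 were called higher and 0 lower, with a median change of 0.13. The 47 are not separate measurements, since some share most of their symbols. Some, such as 10403959 and 10408087, have the same rounded values on every array. Of all 27257 probe sets tested there, 2932 were called in either direction, a share near that among the 47.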

How the results depend on the processing

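The number of histone genes called higher in Dicer knockout than wild-type, 5, lay between 4 and 7 under all 19 alternatives and between 4 and 7 with each array left out in turn, and H1f1, H1f2, H2ax and H2az1 were called in every one. Their largest limma adjusted p was 0.00674 for H1f1, 0.00753 for H1f2, 0.0235 for H2ax and 0.0246 for H2az1. The number called lower was 0, against 2 with a floor of 6 (H2aj and H2aw), 1 after quantile scaling (H2aj), 1 with only the 6 arrays compared (H2aw) and 0 to 1 with each array left out. In Dgcr8 knockout against wild-type the count was 0 throughout. Of the 7 higher in Dicer than in Dgcr8 knockout, 4 were called with all probe sets in the fit, 4 at an adjusted p under 0.01 and 4 to 7 with each array left out, and 0 to 1 were lower (H2aj without Dicer knockout replicate 1). No called value changed sign. H4c4 was lost in 10 of the 19 alternatives against wild-type and in 12 against Dgcr8 knockout. The cause was not tested.

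With the replicate number as a block, the counts were 5 higher against wild-type and 6 higher against Dgcr8 knockout (H2bc4 was lost), and 0 in Dgcr8 knockout against wild-type. Deviations of same-numbered arrays correlated at -0.235 to 0.112, so the numbers were not taken as pairs. With 3 arrays per genotype, changes within about 0.25 of 0 were often inside the interval. Whether a probe set reads a near-identical copy could not be told from these values.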
